A study of Mus musculus with 9 samples.

Results

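Chaperones of the endoplasmic reticulum (ER) and targets of the transcription factor XBP1 were followed through LPS treatment and loss of SRF in cultured mouse macrophages. The 10 genes, Hspa5, Hsp90b1, Calr, Pdia4, Pdia6, Sdf2l1, Dnajb9, Herpud1, Edem1 and Xbp1, were taken by symbol from the 22524 genes with read counts, and all 10 were found and had enough counts to be tested. The cells were bone marrow-derived macrophages from C57BL/6 mice, grown for 7 days in plastic dishes. There were 3 groups of 3 libraries: SRF-KO cells with lipopolysaccharide (LPS) for 6 h, control (wild type) cells with LPS for 6 h, and untreated control cells. LPS is a bacterial outer membrane component sensed by Toll-like receptor 4, and SRF (serum response factor) controls actin and immediate-early genes. The labels do not name the Cre line, the deleted part of Srf or the age of the mice, and the series as used here has no group of SRF-KO cells without LPS.

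Proteins bound for secretion, the plasma membrane or lysosomes enter the ER, where chaperones and disulfide isomerases fold them. When unfolded proteins accumulate, the sensors IRE1, PERK and ATF6 start the unfolded protein response. IRE1 removes a short intron from Xbp1 mRNA, and the spliced mRNA encodes an active transcription factor that, together with ATF6, induces chaperones and components of ER-associated degradation (ERAD), the route by which misfolded proteins are returned to the cytosol and destroyed. In macrophages Toll-like receptor signalling is known to activate IRE1 and XBP1. Read counts per gene do not separate spliced from unspliced Xbp1 mRNA, so XBP1 activity was not measured.

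The promoters of 5 of the 10 genes held a complete match to an ER stress response element, and they are shown here because these elements are the known route from ATF6 and XBP1 to chaperone genes. The ER stress response element (ERSE), CCAAT and CCACG separated by any 9 bases, was found in 4 of the 10 RefSeq promoter windows (250 bases before to 50 after the transcription start, GRCm38.p6) and in 0.119% of all 32851 windows. ERSE-II, ATTGG and CCACG separated by any 1 base, was found in 1 of 10 and in 0.0365% of all. The 10 genes were listed as ER chaperones and XBP1 targets, so a higher share than in all windows is no independent result. Both strands were searched, and each ERSE or ERSE-II contains a CCAAT box and a CCACG by construction. Sequences are the 250 bases before the start, 5′ to 3′ on the strand of the gene, with capitals for the fixed letters of ERSE and for the whole of ERSE-II. They cover chr2:34771840-34772089, plus strand, for Hspa5, chr10:86705445-86705694, minus strand, for Hsp90b1, chr8:84846932-84847181, minus strand, for Calr, chr12:17266339-17266588, plus strand, for Pdia6, and chr8:94386179-94386428, plus strand, for Herpud1.
Hspa5: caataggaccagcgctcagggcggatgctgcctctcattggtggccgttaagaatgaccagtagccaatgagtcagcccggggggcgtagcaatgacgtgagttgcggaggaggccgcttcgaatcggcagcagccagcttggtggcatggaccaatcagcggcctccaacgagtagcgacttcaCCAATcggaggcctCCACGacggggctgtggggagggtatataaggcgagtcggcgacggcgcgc
Hsp90b1: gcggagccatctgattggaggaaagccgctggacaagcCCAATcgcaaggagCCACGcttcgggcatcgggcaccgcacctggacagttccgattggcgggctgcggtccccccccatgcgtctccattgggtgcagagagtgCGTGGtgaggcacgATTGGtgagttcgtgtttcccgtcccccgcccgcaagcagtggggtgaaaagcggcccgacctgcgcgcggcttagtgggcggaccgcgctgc
Calr: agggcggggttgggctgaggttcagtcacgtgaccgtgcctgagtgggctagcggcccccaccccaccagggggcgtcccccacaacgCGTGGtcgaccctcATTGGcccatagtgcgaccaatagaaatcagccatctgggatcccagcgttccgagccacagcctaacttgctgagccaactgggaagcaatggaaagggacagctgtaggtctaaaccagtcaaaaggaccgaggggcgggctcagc
Pdia6: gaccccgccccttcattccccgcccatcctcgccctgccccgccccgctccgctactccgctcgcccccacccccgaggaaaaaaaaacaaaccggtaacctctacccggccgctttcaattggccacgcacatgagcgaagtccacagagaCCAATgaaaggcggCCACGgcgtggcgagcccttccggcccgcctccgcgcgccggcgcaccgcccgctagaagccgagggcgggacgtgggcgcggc
Herpud1: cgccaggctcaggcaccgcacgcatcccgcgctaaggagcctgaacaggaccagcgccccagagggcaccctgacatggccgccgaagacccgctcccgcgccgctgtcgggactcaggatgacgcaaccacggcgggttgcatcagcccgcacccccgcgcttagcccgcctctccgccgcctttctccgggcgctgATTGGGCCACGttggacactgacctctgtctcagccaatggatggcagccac

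Counted from the first transcribed base as 0, the ERSE of Hspa5 lay at -65 to -47 and that of Pdia6 at -98 to -80, both in sense orientation. Calr held 1 antisense ERSE at -162 to -144. Hsp90b1 was the member with more than 1, at -212 to -194 in sense and -107 to -89 in antisense orientation. The ERSE-II of Herpud1 lay at -52 to -42. The unfolded protein response element TGACGTGG was in 0 of the 10 windows and in 0.676% of all. The CArG box, the DNA sequence that SRF binds, was in 1 of the 10, Herpud1 at 36 to 45, and in 1.63% of all. A CCAAT box alone was in 9 of 10 and 37.4% of all windows, and CCACG alone in 9 of 10 and 32.8% of all. Xbp1 was the member with none of these motifs in this window. Only exact matches were searched, so a window can hold further elements that differ from the consensus by a letter. These matches are letters in the reference sequence and no factor's binding was measured.

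**Figure D1:**
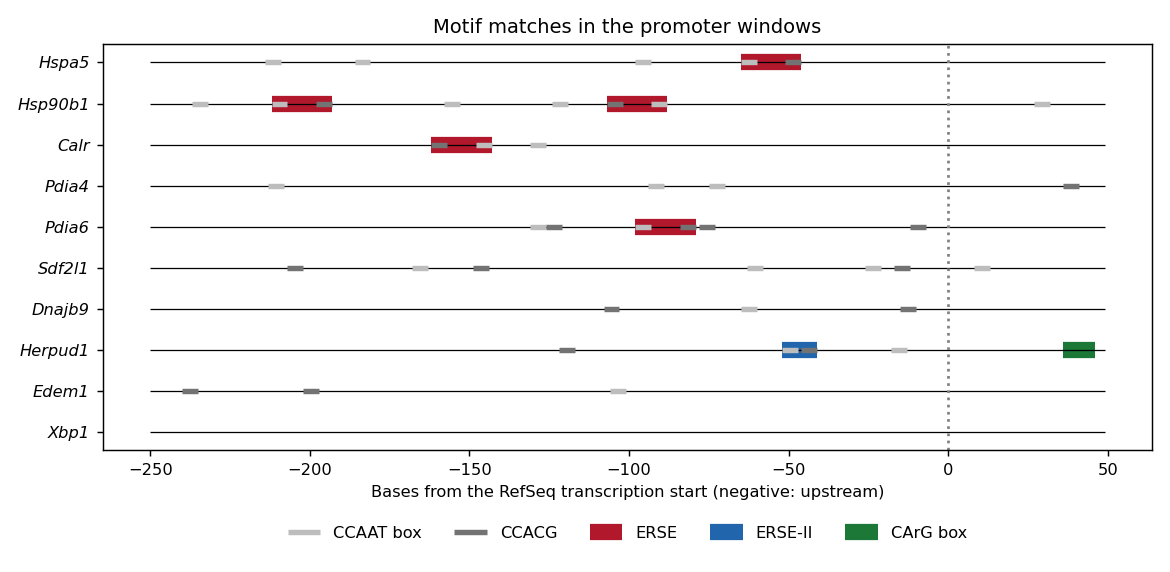
Motif matches in the promoter windows of the 10 genes, with the distance from the RefSeq transcription start in bases on the horizontal axis and 1 line per gene. ERSE (red) appears in 4 genes, with 2 copies in Hsp90b1, and ERSE-II (blue) in Herpud1, while Xbp1 has no mark.

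Library totals ranged from 16987011 to 24912173 counts in SRF-KO with LPS, from 15321839 to 19009123 in control with LPS and from 15867737 to 17606538 in untreated control. Levels are CPM (read counts scaled to a common library size, with TMM factors), and differences are log2 fold changes from edgeR's quasi-likelihood test over 11560 genes, called at a Benjamini-Hochberg adjusted p below 0.05. TMM factors were 1.04, 0.810 to 0.814 and 1.18 to 1.19 in the same order, and with library totals in their place the median of all genes moved from -0.02 to -0.57 for LPS against untreated and from 0.01 to 0.37 for SRF-KO against control with LPS. Srf had 34, 24 and 12 counts in the SRF-KO libraries, against 738, 799 and 900 in control with LPS. The genotypes also differed in 4 Y-linked genes (Uty, Ddx3y, Kdm5d and Eif2s3y), which had 0 to 4 counts each over the SRF-KO libraries, 806 to 2161 over control with LPS and 1176 to 2608 over untreated control. Sex and genotype therefore cannot be told apart in any SRF-KO comparison below. The 10 genes are autosomal. The labels do not say whether libraries of a group came from separate mice or cultures. The p-values therefore cover only library-to-library spread, possibly a technical one. In bulk RNA, fewer expressing cells and less RNA per cell cannot be told apart.

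The cells carried macrophage RNA in every group. The 8 macrophage markers summed to 24197 to 24422 CPM in SRF-KO with LPS, 22928 to 23416 CPM in control with LPS and 16688 to 17212 CPM in untreated control. Lyz2 and Cd14 carried most of the sum in SRF-KO with LPS (12296 and 5356 CPM, against 8925 and 3191 CPM in control with LPS), and the single markers were not level between the genotypes. In SRF-KO against control with LPS 3 of the 8 were higher and 5 lower (median log2 fold change -0.78), or 3 and 5 with library totals. Of all genes 39.1% and 37.9% were called higher and lower with TMM, and most were called higher with library totals. With a list this short, nothing is read from the split. Fcgr1, a high-affinity Fc receptor, averaged 84.2 CPM in SRF-KO with LPS and 1853 CPM in control with LPS, Cd68 553 and 1409.9 CPM, and Adgre1 1701 and 3689 CPM, all chosen after their values were seen. Mertk differed by -2.33 (SE 0.0950) on the log2 scale. Since plasma cells are rich in ER, 8 B and plasma cell markers were examined. They summed to 1126 to 1165, 533 to 545 and 71.0 to 79.4 CPM in the same order, nearly all of it from Sdc1 (1149, 537 and 72.4 CPM), which macrophages also express. Jchain, Mzb1 and Igkc, which plasma cells express, were at 0 counts in SRF-KO with LPS. They averaged 0.0877, 0.0269 and 0.0983 CPM in control with LPS and 0.135, 0.0818 and 0.265 CPM in untreated control. Ighm averaged 0.580 CPM in SRF-KO with LPS, 0.988 CPM in control with LPS and 1.65 CPM in untreated control. Summed markers of neutrophils reached 18.6 to 20.4 CPM in SRF-KO with LPS, 6.21 to 7.33 CPM in control with LPS and 1.60 to 2.20 CPM in untreated control, with Elane at 0 counts in all libraries. S100a8 made up most of that sum in both LPS groups (16.1 and 5.11 CPM), and in untreated control it was at 0.644 CPM beside S100a9 at 0.883 CPM. Those of stromal and endothelial cells reached 1.71 to 2.15, 6.98 to 8.94 and 1.76 to 2.03 CPM, with Col1a1 and Col3a1 at 0. The part of these cell types in the results below was not tested. Dendritic, T and NK, and erythroid markers reached at most 1.16, 0.527 and 0.232 CPM in sum in any library.

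Per kilobase of exon, Calr and Hspa5 were the most abundant of the 10 genes in all 3 groups, and Dnajb9 the least. In SRF-KO with LPS, Calr was at 447 ± 2.88 and Hspa5 at 446 ± 10.5 CPM per kb (SD, n = 3 libraries), a pair that did not differ beyond its spread. Hsp90b1 followed at 334 ± 5.55 CPM per kb. Below it came Pdia6 (105 ± 1.72), Pdia4 (78.8 ± 0.962), Xbp1 (71.9 ± 1.23), Edem1 (48.8 ± 0.635), Sdf2l1 (46.2 ± 1.43), Herpud1 (35.9 ± 0.969) and Dnajb9 (15.2 ± 0.829). In control with LPS, Pdia4 at 23.3 ± 0.529 and Sdf2l1 at 23.2 ± 0.597 CPM per kb lay within their spread of each other, as did Pdia6 at 61.3 ± 1.44 and Xbp1 at 59.5 ± 1.26 CPM per kb. In untreated control, Sdf2l1 at 51.7 ± 1.40 and Pdia4 at 50.4 ± 0.454 CPM per kb were again neighbours within their spread. Lengths are merged exons of GENCODE mouse release 21, and the annotation behind the counts is not given in the sources used here.

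**Figure D2:**
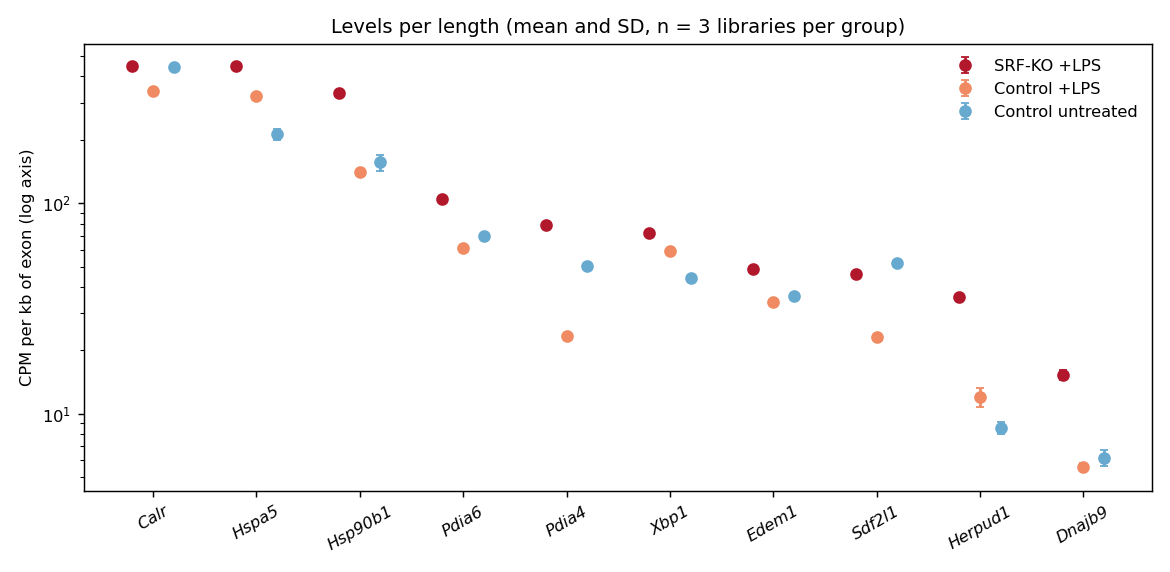
CPM per kilobase of exon (log axis) for the 10 genes, as mean and SD of 3 libraries per group, ordered by the level in SRF-KO with LPS. Calr and Hspa5 stand highest and Dnajb9 lowest, and the points of SRF-KO with LPS lie above those of control with LPS for every gene.

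Together the 10 genes took a larger share of the library in SRF-KO macrophages with LPS than in either control group. They held 0.605 ± 0.00622% of all counts in SRF-KO with LPS, 0.299 ± 0.00436% in control with LPS and 0.434 ± 0.0199% in untreated control (SD, n = 3 libraries each). On the TMM scale the summed level was 5827 ± 62.7 CPM, 3688 ± 62.8 CPM and 3658 ± 149 CPM. Control with LPS thus stood below untreated control by share of counts and level with it on the TMM scale. Hspa5, Hsp90b1 and Calr carried most of the sum in each group. In control with LPS and untreated control, Hspa5 averaged 1369 and 897 CPM, Calr 986 and 1279 CPM, and Hsp90b1 568 and 630 CPM. The level sum therefore does not mean that single genes were level.

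With LPS, all 10 genes were higher in SRF-KO than in control macrophages. Of 11560 genes, 39.1% were called higher and 37.9% lower, 77.0% in all. The median log2 fold change of the 10 was 0.89, against 0.01 over all genes tested, with a range from 0.28 for Xbp1 to 1.76 for Pdia4. With library totals the 10 remained higher, by 0.63 to 2.12, where all genes had a median of 0.37 and 7059 were called higher and 2434 lower, against 4521 and 4384 with TMM. For each of the 10 the 3 SRF-KO libraries all lay above the 3 control libraries with LPS, and 78.0% of all genes showed no overlap. This comparison and the next 2 share libraries pairwise, so they are not independent of each other.

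With LPS in control cells, the 10 genes were called in both directions with TMM, as were all genes tested. On the TMM scale LPS raised 3 (Hspa5, Herpud1 and Xbp1), a call that none of them kept with library totals, lowered 6 under both scalings, and left Dnajb9 without a call. Of all genes 40.8% were called higher and 40.8% lower, 81.7% in all, and 82.1% had groups that did not overlap. The median log2 fold change of the 10 was -0.15, against -0.02 over all genes. With library totals 0 of the 10 were higher and 8 lower with LPS, with a median of -0.70 where the median of all genes was -0.57, and 2428 genes were called higher and 7835 lower, against 4722 and 4721 with TMM. The values below are on the TMM scale.

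**Figure D3:**
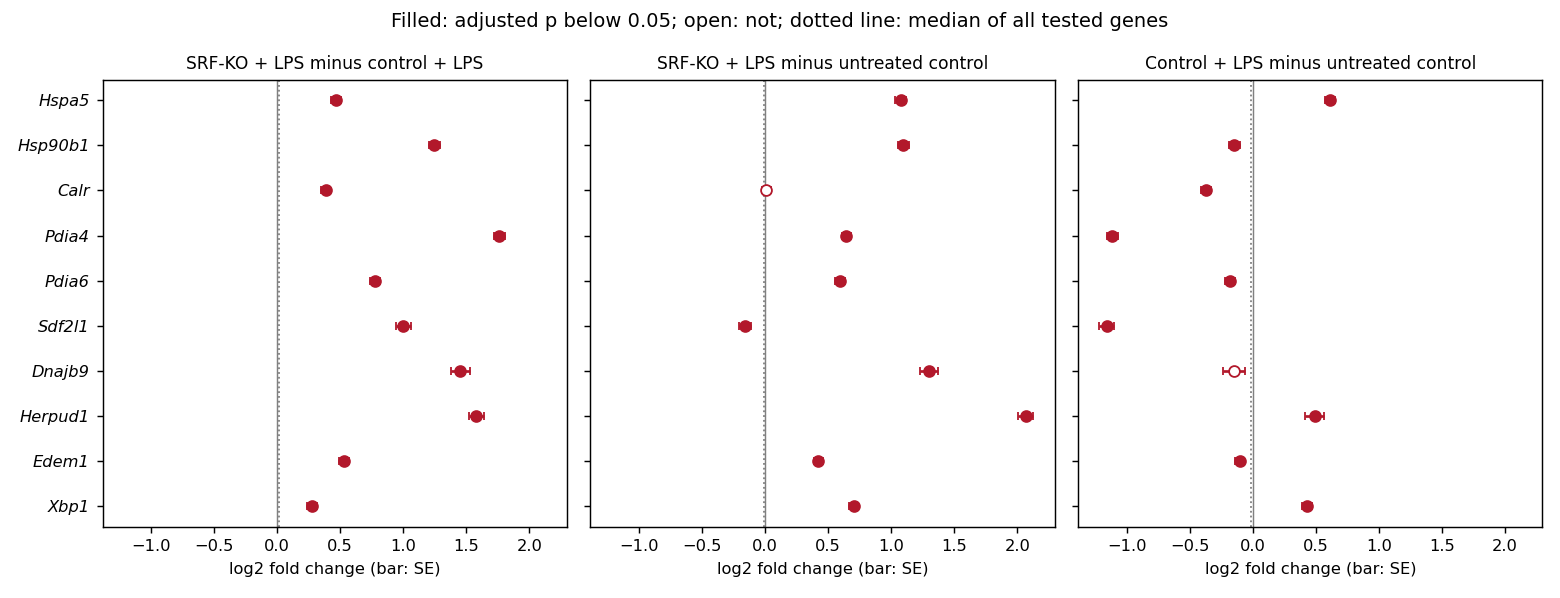
Log2 fold changes of the 10 genes with their SE in the 3 comparisons, filled where the adjusted p was below 0.05, with the median of all tested genes as a dotted line. Against control with LPS all 10 points lie right of 0, from 0.28 for Xbp1 to 1.76 for Pdia4, while LPS against untreated control gives points on both sides, with none called higher when library totals replace TMM.

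The 3 most abundant members are the general chaperones. Hspa5 encodes BiP, the ER member of the HSP70 family, which binds unfolded chains and holds the stress sensors inactive. Hspa5 was at 1838, 1923 and 1903 CPM in the SRF-KO libraries with LPS, 1361, 1391 and 1355 CPM in control with LPS, and 956, 867 and 867 CPM in untreated control. The groups did not overlap and stood in 3 steps, with SRF-KO highest. The log2 fold change was 0.46 (SE 0.0399, edgeR adjusted p = 3.37e-13) for SRF-KO against control with LPS and 0.61 (SE 0.0402, edgeR adjusted p = 1.14e-16) for LPS against untreated. With library totals the LPS change of Hspa5 was 0.06 (adjusted p = 0.15).

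Hsp90b1 encodes GRP94, the ER member of the HSP90 family, which folds Toll-like receptors and integrins. Hsp90b1 was at 1331, 1372 and 1336 CPM in the SRF-KO libraries with LPS, 585, 569 and 550.3 CPM in control with LPS, and 693, 605 and 590.0 CPM in untreated control. The SRF-KO libraries were far above both control groups, and the lowest untreated library was just above the highest LPS-treated control library. The SRF-KO difference was 1.25 (SE 0.0448, edgeR adjusted p = 6.41e-25). LPS against untreated gave -0.15 (SE 0.0447, edgeR adjusted p = 0.00277), and without untreated replicate 1, which was the highest of its group, -0.08 (adjusted p = 0.0766).

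Calr encodes calreticulin, a lectin chaperone for glycoproteins that also stores calcium in the ER. Calr was at 1294, 1278 and 1292 CPM in the SRF-KO libraries with LPS, 1021, 986 and 952 CPM in control with LPS, and 1318, 1259.6 and 1259 CPM in untreated control. Control with LPS was low, and SRF-KO with LPS overlapped untreated control. Calr was higher in SRF-KO than in control with LPS by 0.38 (SE 0.0379, edgeR adjusted p = 1.32e-11) and LPS against untreated gave -0.37 (SE 0.0380, edgeR adjusted p = 2.12e-11). SRF-KO with LPS against untreated control gave 0.01, with a 95% interval from -0.07 to 0.09 (adjusted p = 0.818), and library totals gave -0.18 (adjusted p = 3.06e-05).

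Both disulfide isomerases were lower with LPS in control cells and higher in SRF-KO. Pdia4 encodes ERp72, which forms and rearranges disulfide bonds. Pdia4 was at 190.5, 190.3 and 186 CPM in the SRF-KO libraries with LPS, 57.2, 55.6 and 54.7 CPM in control with LPS, and 120.1, 122 and 121 CPM in untreated control. The 3 groups were well apart. Pdia4 had the largest SRF-KO difference of the 10 genes, 1.76 (SE 0.0432, edgeR adjusted p = 2.24e-30), at percentile 88.2 of all genes by absolute change, and it fell with LPS by 1.12 on the log2 scale (SE 0.0444).

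Pdia6 encodes a further isomerase, which is also known to shut off IRE1. Pdia6 was at 388, 392 and 400.4 CPM in the SRF-KO libraries with LPS, 235, 225 and 229 CPM in control with LPS, and 266, 258 and 258 CPM in untreated control. The order of groups was the same as for Pdia4, with smaller gaps. The SRF-KO difference was 0.78 (SE 0.0373) and that of LPS against untreated -0.18 (SE 0.0377) on the log2 scale. Pdia6 shares 50 exonic bases with Atp6v1c2 on the opposite strand, a gene with 1 count over all 9 libraries.

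The co-chaperones Sdf2l1 and Dnajb9 behaved unlike each other. Sdf2l1 encodes an ER protein that works with BiP and the HSP40 co-chaperones. Sdf2l1 was at 52.5, 51.7 and 49.4 CPM in the SRF-KO libraries with LPS, 26.3, 25.6 and 25.0 CPM in control with LPS, and 58.7, 57.6 and 55.6 CPM in untreated control. Untreated control was the highest group and control with LPS the lowest, without overlap. The log2 fold change of Sdf2l1 was 1.00 (SE 0.0586) for SRF-KO against control with LPS and -1.16 (SE 0.0582) for LPS against untreated. It was the member called lower in SRF-KO with LPS than in untreated control, at -0.16 (SE 0.0495, edgeR adjusted p = 0.00348).

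Dnajb9 encodes ERdj4, an HSP40 co-chaperone that is an XBP1 target and brings BiP to IRE1. Dnajb9 was at 37.0, 41.2 and 38.3 CPM in the SRF-KO libraries with LPS, 14.9, 14.2 and 13.7 CPM in control with LPS, and 16.5, 16.6 and 14.3 CPM in untreated control. The SRF-KO libraries stood apart, and both control groups overlapped. The SRF-KO difference was 1.45 (SE 0.0753, edgeR adjusted p = 8.96e-20). For LPS against untreated the log2 fold change was -0.15, with a 95% interval from -0.33 to 0.02 (adjusted p = 0.101). It became -0.22 without untreated replicate 3 (adjusted p = 0.0274) and -0.70 with library totals (adjusted p = 1.82e-09).

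Of the pair of ERAD genes, Herpud1 had the larger differences. Herpud1 encodes a membrane protein that assembles the ubiquitin ligase complex of ERAD. Herpud1 was at 86.3, 82.1 and 82.7 CPM in the SRF-KO libraries with LPS, 28.9, 24.7 and 30.3 CPM in control with LPS, and 21.4, 18.9 and 19.5 CPM in untreated control. SRF-KO was highest and untreated control lowest, with no overlap. Herpud1 was higher in SRF-KO than in control with LPS by 1.58 (SE 0.0613, edgeR adjusted p = 7.72e-24). Against untreated control the difference of 2.07 (SE 0.0607) was the largest of the 10 genes, at percentile 89.4 of all genes by absolute change. LPS raised it by 0.49 (SE 0.0733), but with library totals the value was -0.06 (adjusted p = 0.433).

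Edem1 encodes a lectin-like protein that hands misfolded glycoproteins to ERAD. Edem1 was at 314, 319.7 and 312 CPM in the SRF-KO libraries with LPS, 215, 219.9 and 219 CPM in control with LPS, and 238, 237 and 231 CPM in untreated control. SRF-KO libraries were above all others, and both control groups were close without overlapping. The log2 fold change was 0.53 (SE 0.0369) for SRF-KO against control with LPS and -0.11 (SE 0.0373) for LPS against untreated, the smallest called LPS change of the 10.

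Xbp1, the regulator, differed least between the genotypes. Xbp1 was at 232, 238 and 231 CPM in the SRF-KO libraries with LPS, 195, 196 and 189 CPM in control with LPS, and 143, 145 and 144 CPM in untreated control. The groups did not overlap on this scale, with SRF-KO highest and untreated control lowest. Between SRF-KO and control with LPS the difference was 0.28 (SE 0.0376, edgeR adjusted p = 2.91e-08), at percentile 32.2 of all genes. LPS raised Xbp1 by 0.43 (SE 0.0387, edgeR adjusted p = 1.19e-12), whereas library totals gave -0.12 (adjusted p = 0.00341).

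**Figure D4:**
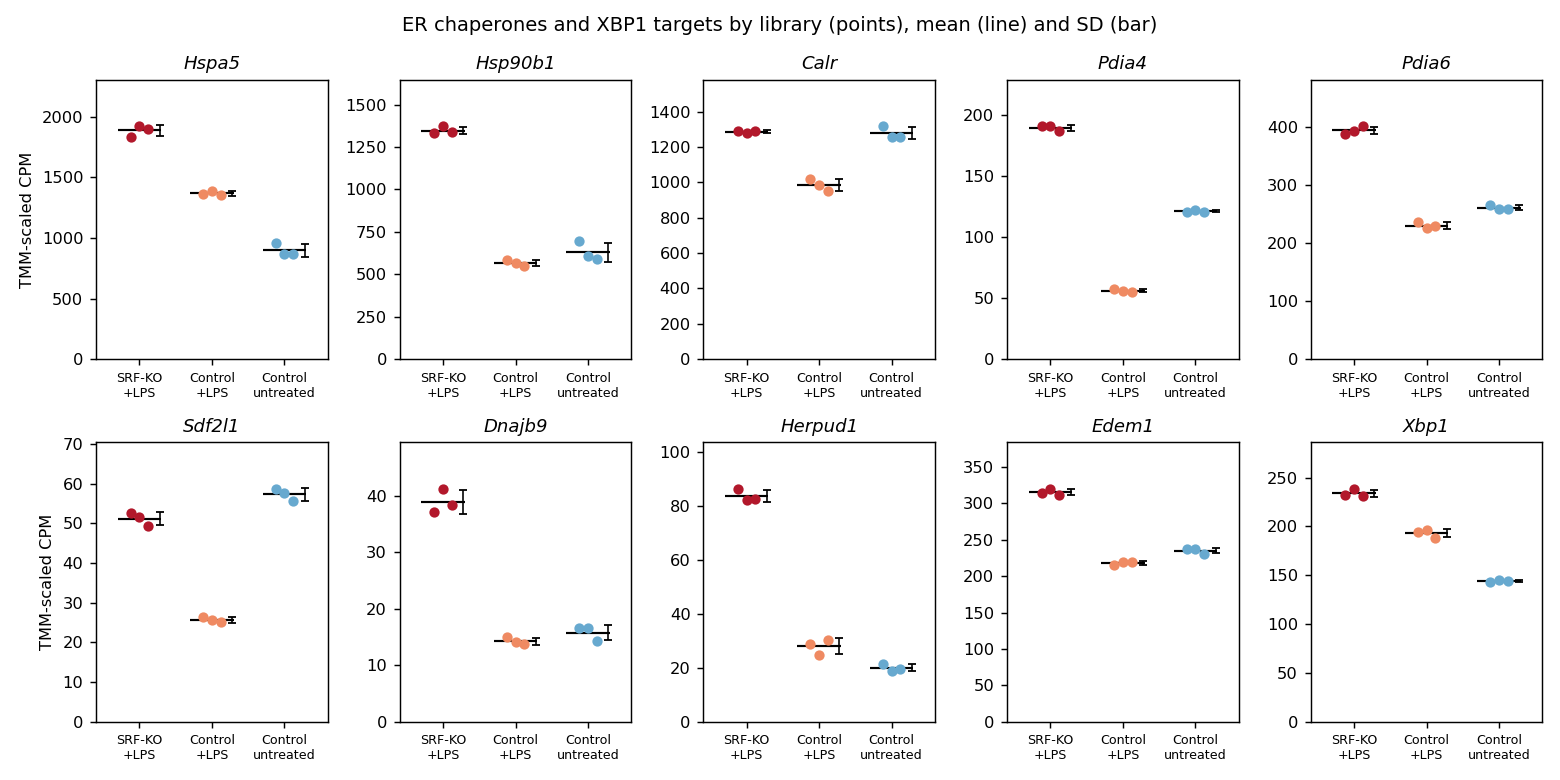
TMM-scaled CPM of the 10 genes in each library (points) with the mean (line) and SD (bar) of 3 libraries per group, each vertical axis starting at 0. SRF-KO with LPS lies above both control groups for 8 genes, overlaps untreated control for Calr and lies below it for Sdf2l1.

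Set against untreated control, SRF-KO macrophages with LPS had 8 of the 10 genes higher, Sdf2l1 lower and Calr not called. Of all genes, 39.4% were called higher and 40.1% lower, 79.5% in all, and 79.5% had groups that did not overlap. The median of the 10 was 0.67, against -0.01 over all genes. After Herpud1, the largest differences were Dnajb9 at 1.30 (SE 0.0686), Hsp90b1 at 1.10 (SE 0.0442) and Hspa5 at 1.07 (SE 0.0403). Xbp1, Pdia4, Pdia6 and Edem1 were 0.70, 0.64, 0.59 and 0.42 higher on the log2 scale. With library totals, where all genes had a median of -0.20, 8 were still higher, and Calr joined Sdf2l1 as lower. This contrast changes genotype and treatment at once, and SRF-KO and LPS effects cannot be told apart in it.

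The 10 genes did not share 1 profile over the 9 libraries. Among the 45 pairs, the Euclidean distance between centred log2 CPM profiles was smallest for Pdia6 and Edem1 (0.323) and for Hsp90b1 and Dnajb9 (0.327), and largest for Sdf2l1 and Herpud1 (2.84). Hspa5 and Xbp1, both highest in SRF-KO with LPS and lowest in untreated control on the TMM scale, were 0.480 apart. By the same measure over 9 libraries and 8303 candidate genes, genes close to Hspa5 included Myof (0.0944) and Vps37a (0.126), and those closest to Xbp1 were Kpna4 (0.116), Sfpq (0.117) and Vdac1 (0.122). None of these named genes is an ER chaperone. Myof, for example, averaged 844, 604 and 399 CPM in SRF-KO with LPS, control with LPS and untreated control.

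Other ER chaperones and folding enzymes were also mostly higher in SRF-KO. Of 26 on the list, all tested, 21 were higher and 4 lower in SRF-KO than in control with LPS (median 0.95). Over all genes the median was 0.01, and 39.1% and 37.9% were called higher and lower. Library totals gave 23 higher and 1 lower, but under them most tested genes were called higher (median of all genes 0.37). Ero1a, the oxidase that recharges protein disulfide isomerase, was at 394 ± 14.6 CPM in SRF-KO with LPS and 137 ± 3.96 CPM in control with LPS (SD, n = 3 each), a difference of 1.52 (SE 0.0398). Hyou1, a nucleotide exchange factor of BiP, was at 359 ± 7.72 and 126 ± 6.56 CPM, a difference of 1.51 (SE 0.0409). The 4 lower genes, named after their values were seen, were Ppib, Sdf2, Sil1 and Erp29, at -0.46, -0.40, -0.22 and -0.18, where library totals gave -0.10, -0.04, 0.14 and 0.18. With LPS in control cells 7 rose and 9 fell (median -0.03), where 40.8% and 40.8% of all genes did. Library totals gave 2 higher and 20 lower, where most tested genes were called lower (median of all genes -0.57). Ero1a rose by 1.88 (SE 0.0472), and Ero1b, its paralog, gave -1.13 (SE 0.0805). Against untreated control, SRF-KO with LPS had 20 of the 26 higher and 3 lower, where 39.4% and 40.1% of all genes were. Library totals gave 19 higher and 5 lower (median of all genes -0.20). Among the higher genes were Ero1a at 3.41 (SE 0.0448) and Dnajc10, a reductase of ERAD substrates, at 1.68 (SE 0.0426).

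ERAD genes other than Herpud1 and Edem1 were called in both directions with TMM, as were all genes tested. Of 21, 13 were higher and 6 lower in SRF-KO than in control with LPS (median 0.21). Of all genes 39.1% and 37.9% were higher and lower. Library totals gave 17 higher and 1 lower, where most tested genes were called higher. The log2 fold change of Edem3, a mannosidase of glycoprotein ERAD, was 0.61 (SE 0.0553) and that of Aup1, a lipid droplet and ERAD protein, -0.70 (SE 0.0439). LPS in control cells raised 15 and lowered 1 (median 0.42, with 40.8% and 40.8% of all genes). But library totals gave 3 higher and 11 lower, where most tested genes were called lower. Syvn1, the ERAD ubiquitin ligase HRD1, rose by 0.94 (SE 0.0483) and Nploc4, a cofactor of the p97 segregase, by 0.79 (SE 0.0424) with TMM. Against untreated control 15 were higher and 3 lower in SRF-KO with LPS, where 39.4% and 40.1% of all genes were. Library totals gave 14 higher and 5 lower, where the median of all genes was -0.20. Syvn1 was at 1.04 (SE 0.0464) and Vcp, which encodes p97, at 1.02 (SE 0.0382) with TMM.

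Genes for entry into the ER, N-glycosylation and exit to the Golgi were also mostly higher in SRF-KO. Where 39.1% and 37.9% of all genes were called higher and lower, for translocation and glycosylation 18 of 24 were higher and 1 lower (median 0.37). Library totals gave 22 and 0, but under them most tested genes were called higher. The lower gene was Spcs1, at -0.32, or 0.03 with library totals. Spcs3 and Sec11c, subunits of the signal peptidase, were 1.13 (SE 0.0521) and 1.00 (SE 0.0478) higher. Of 18 tested transport genes (19 listed), 12 were higher and 2 lower (median 0.34), or 17 and 0 with library totals. Sec24d and Sec24a, cargo adaptors of the COPII coat, were 1.47 (SE 0.0445) and 1.01 (SE 0.0691) higher. LPS in control cells raised 12 and lowered 6 of the 24, or 2 and 21 with library totals. Srpr, a signal recognition particle receptor subunit, was at 1.06 (SE 0.0391) and Ssr3 at 0.68 (SE 0.0441). Of the 18, LPS raised 9 and lowered 5, or 3 and 13 with library totals. Sec23b was at 1.22 (SE 0.0426) and the cargo receptor Surf4 at 0.84 (SE 0.0370). Of all genes 40.8% and 40.8% were called higher and lower with LPS, and most were called lower with library totals. Against untreated control, SRF-KO with LPS had 21 of 24 and 16 of 18 higher and 1 and 1 lower. Of all genes 39.4% and 40.1% were called higher and lower in this comparison. Library totals gave 17 and 15 higher and 3 and 1 lower, where the median of all genes was -0.20. Among the genes higher with TMM were Srpr (1.07), the translocon subunit Sec61a1 (0.97), Sec24d (1.40) and Sec23a (1.23).

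The list of stress sensors and processing factors is short, and nothing is read from its split. Of 9 sensors and processing factors, 6 were higher and 3 lower in SRF-KO than in control with LPS, beside 39.1% and 37.9% of all genes. Library totals gave 7 higher and 1 lower, where most tested genes were called higher. Eif2ak3, which encodes PERK, was at 36.5 ± 1.27 and 11.0 ± 0.340 CPM, a difference of 1.73 (SE 0.0749), and Creb3l2, an ATF6-like factor, differed by 1.18 (SE 0.0662). The lower genes, named after their values were seen, were Creb3, Rtcb and Atf6, at -0.79, -0.30 and -0.16, where library totals gave -0.43, 0.05 and 0.20. LPS in control cells raised 3 and lowered 6 under both scalings, with Eif2ak3 at -1.14 (SE 0.0797) and Creb3 at 0.81 (SE 0.0504). Of all genes 40.8% and 40.8% were called higher and lower with TMM, and most were called lower with library totals. Against untreated control 4 were higher and 2 lower in SRF-KO with LPS. Library totals gave 4 and 5, where the median of all genes was -0.20. Of all genes 39.4% and 40.1% were called higher and lower with TMM. Creb3l2 was at 1.95 (SE 0.0678) and Atf6b at 0.83 (SE 0.0491).

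Of 12 genes of the PERK, ATF4 and CHOP branch, 6 were higher and 3 lower in SRF-KO than in control with LPS. Library totals gave 9 higher and 3 lower. Of all genes 39.1% and 37.9% were called higher and lower with TMM, and most were called higher with library totals. With a list this short, nothing is read from the split. Ddit4, an mTORC1 inhibitor induced by stress, was 2.26 (SE 0.0822) higher, and the difference for Nupr1, a stress-induced chromatin protein, was -2.58 (SE 0.0503). Ddit3, which encodes CHOP, and Atf3 were the other genes called lower, at -0.96 and -0.45 (-0.60 and -0.09 with library totals), both named after their values were seen. LPS in control cells raised 6 and lowered 4, where all genes gave 40.8% and 40.8%. Library totals gave 4 higher and 8 lower, where most tested genes were called lower. Nupr1 was at 2.88 (SE 0.0524) and Ddit4 at 1.78 (SE 0.136) with TMM. In SRF-KO with LPS against untreated control 7 were higher and 4 lower. Library totals gave 5 and 4, where the median of all genes was -0.20. Of all genes 39.4% and 40.1% were called higher and lower with TMM. Among the higher genes were Ddit4 at 4.04 (SE 0.0963) and Ppp1r15a, the phosphatase subunit GADD34, at 2.05 (SE 0.0708).

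Of 9 genes of the ER calcium store, which calreticulin buffers, 5 were higher and 3 lower in SRF-KO than in control with LPS. Library totals gave 6 higher and 3 lower. Of all genes 39.1% and 37.9% were called higher and lower with TMM, and most were called higher with library totals. The list is short, and nothing is read from the split. Of the calcium release channels, Itpr1 was at 11.0 ± 1.06 CPM in SRF-KO with LPS against 134 ± 5.41 CPM in control with LPS, a difference of -3.60 (SE 0.0615), and Itpr3 was 0.94 (SE 0.0657) higher. LPS in control cells raised 5 and lowered 4 (3 and 5 with library totals), with Itpr1 at 2.12 (SE 0.0533) and Itpr3 at -2.20 (SE 0.0610). Of all genes 40.8% and 40.8% were called higher and lower with TMM, and most were called lower with library totals. Against untreated control 5 were higher and 4 lower in SRF-KO with LPS under both scalings. The median of all genes was -0.20 with library totals. Of all genes 39.4% and 40.1% were called higher and lower with TMM. The calcium sensor Stim2 was at 1.55 (SE 0.0615) and Itpr1 at -1.48 (SE 0.0704).

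**Figure D5:**
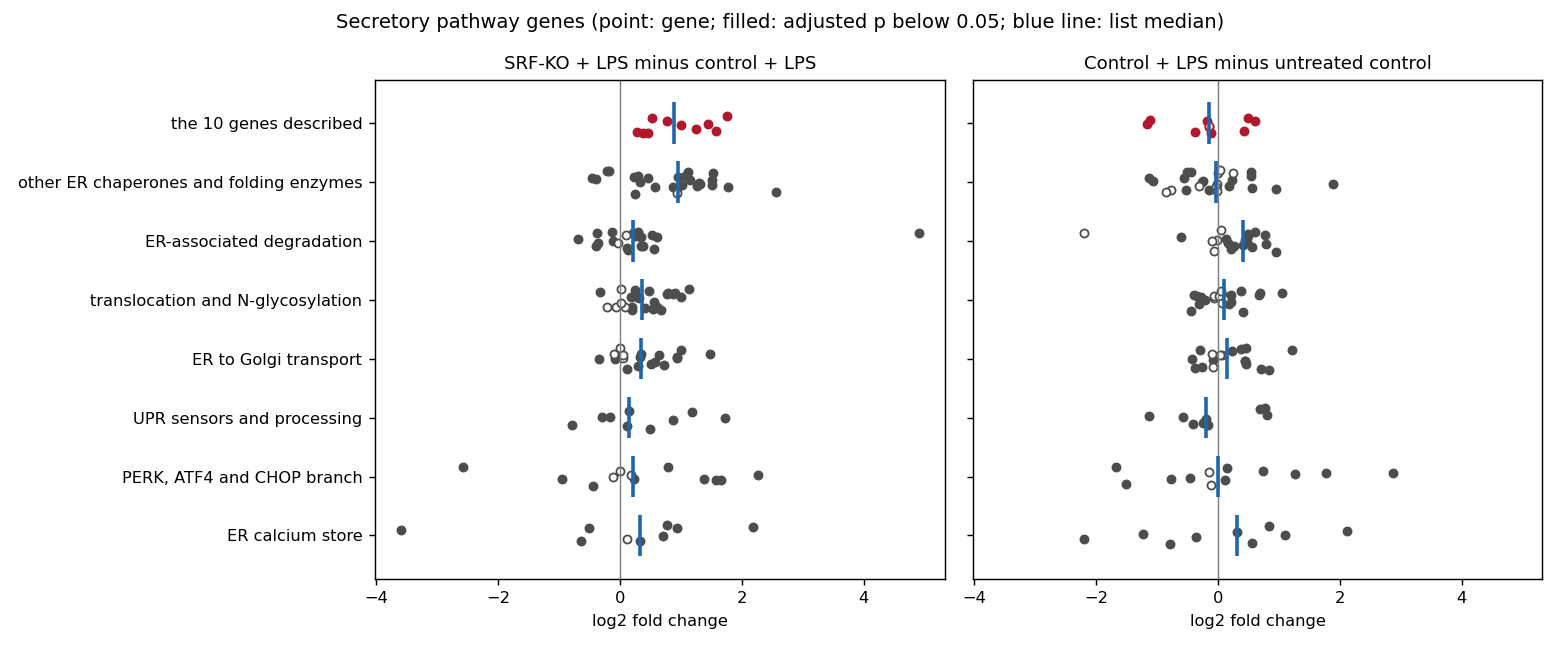
Log2 fold changes of the 10 genes and of 7 secretory pathway lists, 1 point per tested gene, filled where the adjusted p was below 0.05, with the list median as a blue line. For SRF-KO against control with LPS, the medians of the 10 genes and of the other chaperones are 0.89 and 0.95, and for LPS against untreated control they are -0.15 and -0.03.

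All 10 genes are protein-coding and lie on 7 chromosomes of GRCm38 (GENCODE mouse release 21). Hspa5 spans 34771970 to 34777547 on chromosome 2 and Xbp1 5520659 to 5525893 on chromosome 11, both on the plus strand. Pdia4 (47796141 to 47813430, minus strand) and Edem1 (108828641 to 108859356, plus strand) are both on chromosome 6, Calr (84841850 to 84846934, minus strand) and Herpud1 (94386438 to 94395377, plus strand) on chromosome 8, and Pdia6 (17266545 to 17284770, plus strand) and Dnajb9 (44205559 to 44210326, minus strand) on chromosome 12. Hsp90b1 (86690209 to 86705509, chromosome 10) and Sdf2l1 (17130138 to 17132383, chromosome 16) are on the minus strand. Exons of Hsp90b1 overlap those of an annotated pseudogene on the opposite strand by 415 bases. On the same strand they overlap Gm15344 by 84 bases and Gm25745 by 133 bases. None of these overlapping genes is among the genes with read counts. The strand setting of the counting is not given in the sources used here.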

How the data were processed

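RNA of 9 macrophage samples was sequenced, and per the labels' protocols the TruSeq library kit kept strand. The authors deposited 1 table per library with whole-number read counts per Ensembl gene, without normalization, per the file headers. The tools in the submitters' processing notes are edgeR, featureCounts, STAR 2.5.4b, Trimmomatic and bcl2fastq 2.19, and the build is GRCm38. Symbols matched 22214 of 22524 identifiers.

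Groups and replicate numbers came from sample titles. Genes were kept by filterByExpr, scaled by TMM and fitted with all 9 libraries and group as the only term in edgeR 4.0.16 (R 4.3.3, glmQLFit and glmQLFTest, robust). Standard errors came from the fold change and the F statistic. All pairs of replicates differed by more than counting noise (chi-square per degree of freedom 1.75 to 3.95, genes with at least 20 counts). The common biological coefficient of variation was 3.46%. Profiles used log2 CPM with a prior count of 2. The steps were tested on simulated data. The members, lists and tests were chosen with earlier results of these data known. Pathway genes are named as the 2 called members per list and comparison with the largest change and a mean log2 CPM of at least 3. A gene with a profile close to that of Hspa5 is not reported here. The alternatives were library totals, RLE factors, DESeq2 1.42.0, no filter, only the 2 groups compared, a replicate block, and leaving out each library.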

Additional observations from a re-analysis of the deposited data

How the results depend on the processing

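RLE factors, DESeq2, no filter on low counts, and fitting only the 2 groups compared kept the direction and call of each of the 10 genes in all 3 comparisons, and so did the replicate block. With the block, 10 and 0 of the 10 were higher and lower for SRF-KO against control with LPS, 3 and 6 for LPS against untreated, and 8 and 1 for SRF-KO with LPS against untreated. Correlations of deviations between same-numbered libraries were weak, from -0.0746 to 0.0971 over the 3 comparisons. For SRF-KO against control with LPS they were 0.0654, 0.0971 and 0.0180, above the other pairs at -0.0725 to 0.00672. The numbers were not taken to pair the samples, and the block is given as the alternative. Library totals in place of TMM were the setting with most effect. For LPS against untreated they gave 0 higher members, 2428 higher and 7835 lower genes, and reversed values of -0.0611 for Herpud1 and -0.123 for Xbp1. For SRF-KO against control with LPS they gave 7059 higher and 2434 lower genes. For SRF-KO with LPS against untreated they gave 2 lower members, with Calr at -0.183 and a median of all genes of -0.20. Leaving out 1 library at a time gave 5 to 7 lower members for LPS against untreated, where Hsp90b1 lost its call without untreated replicate 1 and Dnajb9 gained one without untreated replicate 3, and Calr for SRF-KO with LPS against untreated ranged from -0.0026 to 0.031. The counts of members called were otherwise the same in each of these fits. Which scaling is nearer to the cells' RNA content was not tested.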

Other observations

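Some genes of the lists were too low to be named by the rule and are given here after their values were seen. Derl3, an ERAD channel subunit known as a target of ATF6 and XBP1, had 59 counts over the SRF-KO libraries with LPS, 1 over control with LPS and 8 over untreated control. Derl3 passed the filter on low counts only through the SRF-KO group, so no ratio is given for it. Pdia5, a disulfide isomerase, was at 7.55 ± 0.575 CPM in SRF-KO with LPS, 2.18 ± 0.499 CPM in control with LPS and 2.71 ± 0.220 CPM in untreated control (SD, n = 3 each). The SRF-KO difference with LPS was 1.77 (SE 0.161) on the log2 scale. Fkbp14, a prolyl isomerase of the ER, was at 1.41 ± 0.269, 0.234 ± 0.338 and 0.429 ± 0.0528 CPM in the same order. Fkbp14 too passed the filter only through the SRF-KO group. Derl3 and Fkbp14 are counted as higher in their lists for SRF-KO against control with LPS, and neither is support for that direction.

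Of 111 RefSeq promoter windows of genes on the 7 secretory pathway lists, 7 (6.31%) held the unfolded protein response element TGACGTGG and 6 (5.41%) a complete ERSE, against 0.676% and 0.119% of all windows. The lists were drawn up from known pathway genes, so these are only descriptions of the reference sequence.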
